A study of Homo sapiens with 16 samples.

Results

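The genes described here belong to the ADAM, ADAMTS and matrix metalloprotease (MMP) families of zinc-dependent proteases, the ADAMTS-like proteins and the tissue inhibitors of metalloproteases (TIMPs). They were taken by symbol from the table of raw counts, with no use of their values, and 66 of the 27037 genes in that table are members. The annotation lists 1 of them, MMP23A, as a pseudogene. They comprise 19 ADAMs, 19 ADAMTSs, 5 ADAMTS-like genes, 19 MMPs and 4 TIMPs. The cells are SK-N-BE(2)C, a human neuroblastoma line with MYCN amplification, and the study used it to ask how a block of the cell cycle and a differentiation signal act together. RNA-seq was carried out on 16 samples after 5 days of treatment, with 4 replicates in each of 4 groups. The groups were vehicle (DMSO), all-trans retinoic acid (RA) at 10 µM, the CDK4/6 inhibitor palbociclib (PB) at 1 µM, and both agents at these doses (PB+RA). All cells came from 1 established line, so the data stand for that line. The study's methods call the replicates biological and take such replicates as separate platings of this line at different passages, so p-values measure the spread between those platings.

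Sequencing depth ranged from 19515779 to 31620821 counted reads per sample, and 3 reads corresponded to 0.0949 to 0.154 CPM (counts scaled to a library total of 1e6). Of the 66 members, 44 had enough reads to be tested, beside 15415 tested genes in all. The 8 neuroblastoma markers of the adrenergic (sympathetic) type were all above 1 CPM, with a sum of 2330 to 2621 CPM in DMSO, 2602 to 2951 with RA, 2932 to 3194 with PB and 2787 to 3698 with PB+RA. Of 13 markers of mesenchymal neuroblastoma cells or fibroblasts, 12 were in the table, and all 12 averaged above 1 CPM over the 16 samples, although FOSL1 in DMSO and with PB and YAP1 with PB lay below it. They summed to 430 to 627 CPM in DMSO, 925 to 1414 with RA, 507 to 638 with PB and 719 to 1088 with PB+RA. Fibronectin, FN1, made up most of the differences in that sum, at 119 to 231 CPM in DMSO, 559 to 932 with RA, 106 to 222 with PB and 391 to 728 with PB+RA. The other 11 summed to 310 to 399, 332 to 482, 400 to 415 and 322 to 360 CPM in the same order. With RA, 9 of the 12 had a higher mean than in DMSO and 3 (SNAI2, CD44 and LUM) a lower one. With PB 4 were higher and 8 lower, and with PB+RA 6 were higher and 6 lower. PRRX1 was not analysed here. The Schwann cell factor SOX10, the leukocyte gene PTPRC and the endothelial gene PECAM1 stayed at or below 0.132 CPM on average in every group. Replicates 1 and 2 stood apart from replicates 3 and 4 on the third principal component, which held 10.8% of the variance. Within each group they also parted on the second, which held 23%.

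ADAMs are membrane proteins with a disintegrin and a metalloprotease domain. Those with an intact active site cut the extracellular parts of receptors, ligands and adhesion molecules from the cell surface, while others lack a working protease and act in adhesion and signalling, as ADAM11, ADAM22 and ADAM23 do at synapses through LGI proteins. ADAMTS proteases are secreted, bind the matrix through thrombospondin repeats, and cut procollagens, proteoglycans of the versican family or other matrix proteins. MMPs cut collagens and many other proteins outside the cell, either as secreted enzymes or anchored to the membrane. TIMPs inhibit MMPs and, TIMP3 in particular, some ADAMs and ADAMTSs. In the nervous system these enzymes are known for roles in neurite growth, guidance and perineuronal matrix, and in tumours for invasion.

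The 22 members that were not tested had summed counts of 1 to 111 over the 16 samples and never exceeded 0.676 CPM. They included MMP9, the second gelatinase, at 0 to 0.477 CPM, the interstitial collagenase MMP13, the stromelysin MMP10, and TIMP4. The tested members covered 13 ADAMs, 14 ADAMTSs, 3 ADAMTS-like genes, 11 MMPs and 3 TIMPs. On a per-length scale (CPM per kilobase of exon, RPKM), MMP2, the gelatinase A that cuts denatured collagen and collagen IV, stood highest in DMSO at 168 ± 24.4 RPKM (SD, n = 4). TIMP1 followed at 69.6 ± 4.38 RPKM and TIMP2 at 48.5 ± 13.6 RPKM. MMP15, a membrane MMP, stood at 34.2 ± 3.88 RPKM and ADAMTS19, an ADAMTS of little-known substrate, at 27.5 ± 2.73 RPKM. Their order below MMP2 changed with PB+RA, where TIMP2 (86.3 ± 22.2 RPKM) and TIMP1 (79.8 ± 4.94 RPKM) lay within their spread of each other. The largest move in rank was that of ADAMTS14, from place 30 in DMSO (0.431 ± 0.199 RPKM) to place 7 with PB+RA (21.9 ± 1.46 RPKM).

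A gene was called changed when the adjusted p of edgeR's quasi-likelihood test was below 0.05 and the log2 fold change exceeded 0.5 in size. Counts, adjusted p-values and shares of all genes come from the fit without a term for replicate number, unless a block is named. With the replicate number as a block, more members were called higher with RA, as given in the closing section. No call of a member was lost in that fit. Shares of all genes are not given for that fit. With PB against DMSO, 11 of the 44 tested members were called higher, where 16.9% of all tested genes were, and 7 were called lower, where 11.3% of all were. With RA, 9 members were called higher against 10.8% of all genes, and 1 was called lower against 2.54%. With PB+RA, 19 members were called higher against 24.0% of all genes, and 8 were called lower against 17.9%. These are 43.2% and 18.2% of the tested members. Set against PB, PB+RA had 11 members higher (background 9.02%) and 5 lower (background 7.27%). Set against RA, it had 11 higher (background 14.9%) and 8 lower (background 14.1%). The median log2 fold change of the tested members was 0.20 with PB, 0.22 with RA and 0.43 with PB+RA, beside 0.03, 0.01 and 0.04 over all tested genes. The comparisons with DMSO share the same control samples. In total 33 tested members were called in at least 1 of the 5 comparisons and 11 in none of them.

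**Figure D1:**
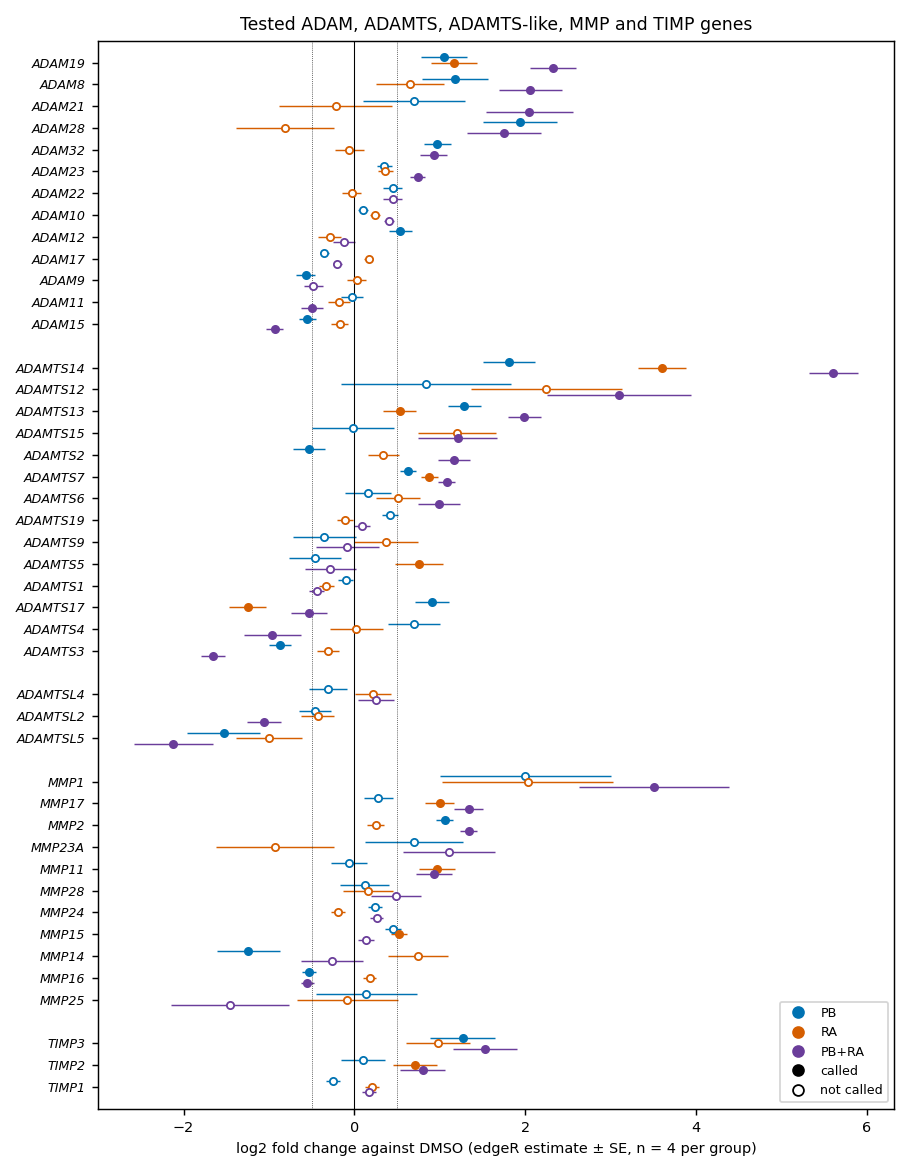
Log2 fold change against DMSO (x axis, edgeR estimate ± SE, n = 4 per group) of each of the 44 tested members, grouped by family and ordered within a family by the PB+RA value. Filled points were called and open points were not, and dotted lines mark 0.5 in either direction. ADAMTS14 lies furthest to the right with PB+RA at 5.61.

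The families were counted apart, and the shares of all tested genes called were those just given (PB 16.9% higher and 11.3% lower, RA 10.8% and 2.54%, PB+RA 24.0% and 17.9%). Of 13 tested ADAMs, PB raised 5 and lowered 2, RA raised ADAM19 alone, and PB+RA raised 6 and lowered 2. Of 14 ADAMTSs, PB raised 4 and lowered 2, RA raised 4 and lowered 1, and PB+RA raised 7 and lowered 3. Of 11 MMPs, PB raised MMP2 alone and lowered 2, RA raised 3, and PB+RA raised 4 and lowered 1. In shares, PB raised 38.5% of ADAMs, 28.6% of ADAMTSs and 9.09% of MMPs, the last below the background. It lowered 15.4%, 14.3% and 18.2% of them, each 2 genes. The summed MMP level was 1123 ± 116 CPM in DMSO, 1393 ± 166 with RA, 2006 ± 141 with PB and 2413 ± 78.2 with PB+RA (SD, n = 4). The summed TIMP level was 408 ± 88.2 CPM in DMSO, 625 ± 132 with RA, 421 ± 68.3 with PB and 668 ± 129 with PB+RA. Summed ADAMTS levels were 617 ± 54.7 CPM in DMSO and 894 ± 46.2 with PB+RA, whereas summed ADAM levels were 650 ± 38.2 and 677 ± 76.2 CPM, a difference within the spread of the samples. These sums carried no test. Whether more RNA per cell or more cells with that RNA lay behind a level cannot be told apart in bulk samples.

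The procollagen N-propeptidases ADAMTS2, ADAMTS3 and ADAMTS14, which trim the amino-terminal propeptides of fibrillar procollagens, moved in different directions. ADAMTS14 (GRCh37 chr10:72432262-72522197, plus strand) read 1.60, 1.43, 3.79 and 2.79 CPM in DMSO replicates 1 to 4, an order kept in all lists of 4 values that follow. It read 27.8, 41.2, 24.9 and 24.9 CPM with RA, 6.35, 7.06, 12.6 and 8.15 with PB, and 122, 120, 132 and 113 with PB+RA. No group overlapped another, and each step from DMSO through PB and RA to PB+RA was upward in every replicate. RA raised ADAMTS14 by 3.60 ± 0.28 on the log2 scale (SE, adjusted p = 4.38e-07). PB raised it by 1.81 ± 0.30 (adjusted p = 0.000112), and both agents raised it by 5.61 ± 0.29 (adjusted p = 2.47e-10). The PB+RA change lay 0.21 ± 0.38 above the sum of the single changes (adjusted p = 0.845). It also rose with PB+RA over RA (2.02 ± 0.23, adjusted p = 3.4e-06) and over PB (3.81 ± 0.26, adjusted p = 6.17e-08).

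ADAMTS2 (chr5:178537854-178772462, minus strand) read 77.5, 69.9, 54.2 and 73.4 CPM in DMSO, 118, 89.6, 60.3 and 82.0 with RA, 57.0, 50.5, 36.7 and 45.9 with PB, and 184, 159, 123 and 163 with PB+RA. Every PB+RA sample lay above every other sample, while PB and DMSO overlapped. ADAMTS2 fell with PB by 0.53 on the log2 scale (SE 0.19, adjusted p = 0.0259) and rose with PB+RA by 1.17 ± 0.19 (adjusted p = 4.91e-05), and RA alone gave 0.34 ± 0.18 (adjusted p = 0.167). The fall with PB was lost without DMSO replicate 1 or 4 or PB replicate 3 or 4 (log2 fold changes of -0.52 to -0.46, adjusted p 0.0538 to 0.0684), but it was present in 4 of 4 replicate numbers. With the replicate block the PB value was -0.54 (adjusted p = 2.32e-07). ADAMTS3 (chr4:73146686-73434938, minus strand) went the other way. It read 68.3, 73.2, 89.9 and 89.5 CPM in DMSO, 58.0, 57.1, 78.9 and 67.2 with RA, 47.2, 41.6, 41.2 and 45.9 with PB, and 22.6, 20.9, 29.2 and 31.8 with PB+RA. The PB and PB+RA samples lay below all DMSO and RA samples and did not overlap each other. The log2 fold change of ADAMTS3 was -0.87 ± 0.13 under PB (adjusted p = 4.59e-05) and -1.65 ± 0.14 under both agents (adjusted p = 2.61e-08), and RA alone gave -0.31 ± 0.13 (adjusted p = 0.0812).

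The promoter sequences of these N-propeptidase genes are given to set the members with opposite changes side by side. They are RefSeq promoters on GRCh38.p14, from 250 bases before to 50 after the annotated start, written 5′ to 3′ on the gene's strand. Capitals mark GC boxes (GGGCGG, or CCGCCC where the box lies on the other strand). ADAMTS14 lies at chr10:70672256-70672555 on the plus strand, ADAMTS2 at chr5:179345412-179345711 on the minus strand and ADAMTS3 at chr4:72569172-72569471 on the minus strand.
ADAMTS14: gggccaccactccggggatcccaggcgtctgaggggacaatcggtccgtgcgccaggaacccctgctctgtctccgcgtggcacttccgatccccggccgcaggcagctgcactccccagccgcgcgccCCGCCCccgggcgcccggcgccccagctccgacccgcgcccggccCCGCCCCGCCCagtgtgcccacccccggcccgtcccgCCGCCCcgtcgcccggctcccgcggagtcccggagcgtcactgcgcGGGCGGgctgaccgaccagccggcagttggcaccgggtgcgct
ADAMTS2: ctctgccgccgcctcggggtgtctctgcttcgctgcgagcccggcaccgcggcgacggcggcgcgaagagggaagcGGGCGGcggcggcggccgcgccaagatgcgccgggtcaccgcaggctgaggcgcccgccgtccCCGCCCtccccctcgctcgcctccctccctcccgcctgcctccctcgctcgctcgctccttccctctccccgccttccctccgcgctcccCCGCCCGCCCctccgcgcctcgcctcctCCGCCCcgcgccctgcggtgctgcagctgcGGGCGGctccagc
ADAMTS3: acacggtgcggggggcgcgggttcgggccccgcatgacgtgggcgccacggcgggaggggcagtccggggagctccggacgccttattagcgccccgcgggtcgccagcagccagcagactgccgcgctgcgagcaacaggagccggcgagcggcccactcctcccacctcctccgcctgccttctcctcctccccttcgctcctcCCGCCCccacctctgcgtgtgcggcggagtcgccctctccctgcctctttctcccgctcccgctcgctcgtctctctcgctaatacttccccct
The window holds 79.7% G and C for ADAMTS14, 80.3% for ADAMTS2 and 72.7% for ADAMTS3. Each holds at least 1 GC box. A match describes the letters of the window and says nothing of binding.

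**Figure D2:**
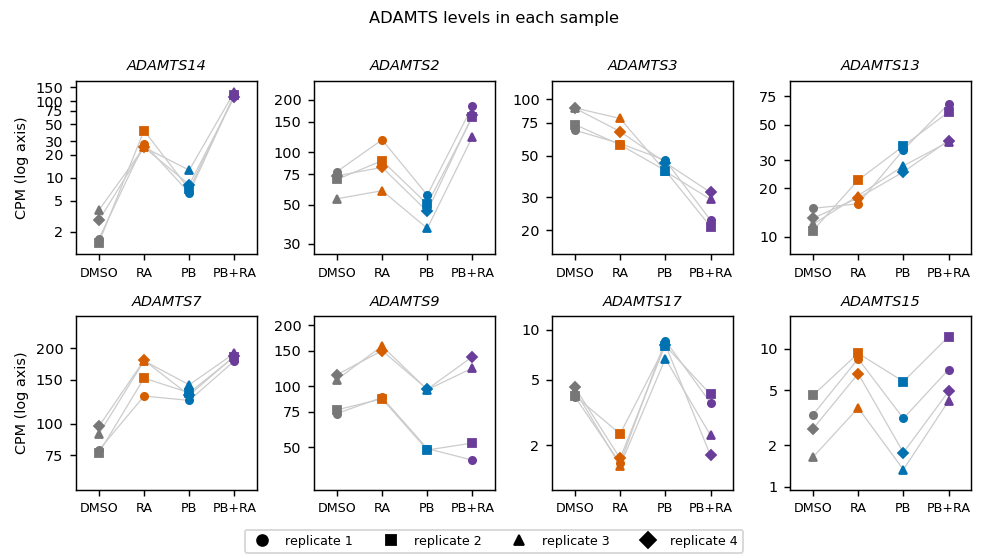
Level of 8 ADAMTS genes (y axis, CPM on a log axis) in each sample, with lines joining samples of the same replicate number and symbols marking the number. ADAMTS14 ranges from 1.43 to 132 CPM, ADAMTS3 is lowest with PB+RA, and ADAMTS9 parts replicates 1 and 2 from 3 and 4 in every group.

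ADAMTS7, which cuts cartilage oligomeric matrix protein, and ADAMTS13, the plasma protease of von Willebrand factor, were raised by each agent. ADAMTS7 read 78.7, 76.6, 91.1 and 97.7 CPM in DMSO, 129, 152, 178 and 179 with RA, 124, 133, 143 and 130 with PB, and 178, 185, 191 and 186 with PB+RA. Every DMSO sample lay below every treated one. RA raised ADAMTS7 by 0.88 ± 0.094 (adjusted p = 4.48e-06), PB by 0.63 ± 0.094 (adjusted p = 3.41e-05) and both agents by 1.08 ± 0.095 (adjusted p = 4e-08). The call for PB ended with a correction for GC content and length (0.44, adjusted p = 0.00253) and in replicates 3 and 4 alone (0.49, adjusted p = 7.54e-07). ADAMTS7P3, a pseudogene copy that can share its reads, read 9.55 ± 0.737 CPM in DMSO and 8.10 ± 0.958 with PB+RA (SD, n = 4). ADAMTS13 read 15, 10.9, 11.9 and 13.0 CPM in DMSO, 16, 22.5, 18.0 and 17.4 with RA, 34.8, 36.7, 27.6 and 25.3 with PB, and 67.2, 59.9, 39.0 and 39.7 with PB+RA. The groups of ADAMTS13 did not overlap, and PB raised it by 1.29 ± 0.19 (adjusted p = 2.62e-05), both agents by 1.99 ± 0.19 (adjusted p = 1.29e-07). Its RA value of 0.53 ± 0.19 (adjusted p = 0.0365) was lost without DMSO replicate 2, 3 or 4 or RA replicate 2, 3 or 4 (0.42 to 0.56, adjusted p 0.0551 to 0.109). Both genes overlap a more abundant gene on the opposite strand (MORF4L1 at 429 CPM over ADAMTS7, REXO4 at 69.4 CPM over ADAMTS13), with 0 shared exon bases in the annotation used.

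ADAMTS17, an ADAMTS linked to fibrillin matrix, was moved in opposite directions by the agents. It ranged from 3.94 to 4.49 CPM in DMSO, from 1.51 to 2.35 with RA, from 6.70 to 8.62 with PB and from 1.74 to 4.07 with PB+RA. The DMSO, RA and PB ranges did not overlap each other. ADAMTS17 fell with RA (-1.25 ± 0.22, adjusted p = 0.000373), rose with PB (0.91 ± 0.20, adjusted p = 0.00106), and was lower with PB+RA than with PB (-1.44 ± 0.21, adjusted p = 5.1e-05). It was the 1 member called lower with RA in the fit without the replicate number as a block. Its fall with PB+RA against DMSO (-0.53 ± 0.21, adjusted p = 0.0343) was lost when replicate 3 or 4 of DMSO, or 3 or 4 of PB+RA, was left out (-0.51 to -0.35) and was -0.07 in replicates 1 and 2 alone (adjusted p = 0.766). Its rise with PB+RA over RA (0.72 ± 0.22, adjusted p = 0.0122) was lost without PB+RA replicate 1 or 2 (0.51 to 0.58) and in replicates 3 and 4 alone (0.36, adjusted p = 0.211).

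Among the low members of the same family, ADAMTS6, which acts on fibrillins and other matrix proteins, ranged from 0.791 to 0.993 CPM in DMSO and from 1.46 to 2.05 with PB+RA, a rise of 0.99 ± 0.25 (adjusted p = 0.00271). It also rose with PB+RA over PB (0.83 ± 0.26, adjusted p = 0.0183), a call lost in replicates 1 and 2 alone (0.31, adjusted p = 0.455). ADAMTS12, a further protease of cartilage oligomeric matrix protein, ranged from 0.0355 to 0.693 CPM in DMSO, 0.528 to 2.18 with RA, 0 to 1.31 with PB and 1.21 to 4.16 with PB+RA. The rise of ADAMTS12 with PB+RA was 3.10 ± 0.84 (adjusted p = 0.00451), and 3.0 in replicates 1 and 2 alone (adjusted p = 0.0817). Its RA value was 2.25 ± 0.88 (adjusted p = 0.0596), and 2.28 with the replicate number as a block (adjusted p = 8.65e-05). Its PB+RA level over PB (2.26 ± 0.80, adjusted p = 0.0369) lost its call without PB replicate 1, 3 or 4 or PB+RA replicate 2 (1.67 to 2.05), and over RA it gave 0.85 ± 0.70 (adjusted p = 0.322) and 0.87 with the block (adjusted p = 0.0110).

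ADAMTS1, ADAMTS4, ADAMTS5, ADAMTS9 and ADAMTS15 are the tested proteoglycanases, which cut versican, aggrecan and their relatives. Their changes were mixed. ADAMTS15 read 3.33, 4.61, 1.64 and 2.63 CPM in DMSO, 8.48, 9.30, 3.73 and 6.62 with RA, 3.13, 5.80, 1.33 and 1.77 with PB, and 7.08, 12.3, 4.20 and 4.92 with PB+RA. The groups overlapped, but each replicate number had more ADAMTS15 with RA than in DMSO, by 1.01 to 1.35 on the log2 scale. The RA value of ADAMTS15 was 1.20 ± 0.46 (adjusted p = 0.0528) and 1.21 with the replicate block (adjusted p = 1.21e-06). PB+RA gave 1.21 ± 0.46 (adjusted p = 0.0299), a call lost when replicate 3 or 4 of DMSO, or 1 or 2 of PB+RA, was left out (0.78 to 1.18, adjusted p 0.0538 to 0.141). Against PB its rise of 1.22 ± 0.46 (adjusted p = 0.0499) was lost without PB replicate 1, 3 or 4 or PB+RA replicate 1 or 2 (0.82 to 1.24).

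ADAMTS4 ranged from 1.74 to 4.08 CPM in DMSO, 2.05 to 3.80 with RA, 2.85 to 5.85 with PB and 0.871 to 1.86 with PB+RA. ADAMTS4 fell with PB+RA, by 0.96 on the log2 scale against DMSO (SE 0.33, adjusted p = 0.0162) and by 1.66 against PB (SE 0.32, adjusted p = 0.000776). The call against DMSO was lost without DMSO replicate 2 (-0.62, adjusted p = 0.0831). Its fall against RA (-0.98 ± 0.33, adjusted p = 0.0180) was lost without RA replicate 2 or PB+RA replicate 4 (-0.84 to -0.72). Its PB value was 0.70 ± 0.30 (adjusted p = 0.0604) and 0.71 with the replicate block (adjusted p = 0.000107). ADAMTS5 ranged from 0.886 to 2.21 CPM in DMSO, 1.88 to 3.56 with RA, 1.04 to 1.40 with PB and 0.849 to 2.05 with PB+RA. The RA rise of ADAMTS5 (0.76 ± 0.28, adjusted p = 0.0449) was lost without DMSO replicate 1, 2 or 3 or RA replicate 3 or 4 (0.55 to 0.83, adjusted p 0.0603 to 0.133), and it was lower with PB+RA than with RA (-1.04 ± 0.29, adjusted p = 0.00633).

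ADAMTS9 was not called in any comparison. It read 73.4, 76.5, 108 and 114 CPM in DMSO, 88.1, 86.7, 158 and 150 with RA, 49.3, 48.5, 96.2 and 96.7 with PB, and 43.2, 52.5, 123 and 140 with PB+RA. In every group replicates 3 and 4 lay above replicates 1 and 2. The PB+RA value of ADAMTS9 against DMSO was -0.08 ± 0.37 (adjusted p = 0.851), with log2 ratios of -0.77, -0.54, 0.19 and 0.30 in replicates 1 to 4. Against RA it gave -0.45 ± 0.37 (adjusted p = 0.326), and -0.54 with the block (adjusted p = 0.00819). ADAMTS1, the remaining proteoglycanase, read 107 to 117 CPM in DMSO and 82.9 to 86.6 with PB+RA, and its value of -0.44 ± 0.088 (adjusted p = 0.000344) lay under the fold minimum. ADAMTS19 likewise passed the p threshold with PB at 0.42 ± 0.097 (adjusted p = 0.00174) and not the fold minimum.

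MMP2 (chr16:55423612-55540603, plus strand) read 689, 694, 877 and 902 CPM in DMSO, 858, 815, 1072 and 1040 with RA, 1517, 1542, 1845 and 1666 with PB, and 2025, 1955, 2113 and 2050 with PB+RA. All PB samples lay above all DMSO and RA samples, and all PB+RA samples above all PB samples. PB raised MMP2 by 1.06 ± 0.10 (adjusted p = 4.13e-07), and both agents raised it by 1.34 ± 0.10 (adjusted p = 1.16e-08). RA gave 0.25 ± 0.10 (adjusted p = 0.0687), and adding RA to PB gave 0.28 ± 0.10 (adjusted p = 0.0416), which is under the fold minimum. MMP2 supplied 28.2% of the members' reads in DMSO, 27.7% with RA, 43.7% with PB and 43.7% with PB+RA. Without MMP2 the members summed to 2014 ± 171 CPM in DMSO, 2470 ± 279 with RA, 2117 ± 117 with PB and 2621 ± 253 with PB+RA (SD, n = 4).

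MMP14 (chr14:23305769-23318250, plus strand), the membrane MMP that activates pro-MMP2 together with TIMP2, changed the other way with PB. It read 34.3, 19.6, 48.4 and 53.0 CPM in DMSO, 64.4, 31.0, 78.6 and 89.3 with RA, 16.5, 11.8, 15.1 and 22.5 with PB, and 30.7, 18.6, 34.8 and 48.3 with PB+RA. Replicate 2 was the lowest of every group, and the groups overlapped, but within each replicate number MMP14 was lower with PB and higher with RA than in DMSO. MMP14 fell with PB by 1.24 on the log2 scale (SE 0.37, adjusted p = 0.0112), a value of -0.95 in replicates 1 and 2 alone (adjusted p = 0.227). With the replicate block the PB value was -1.20 (adjusted p = 1.03e-07). RA gave 0.75 ± 0.35 (adjusted p = 0.113), and 0.75 with the replicate block (adjusted p = 1.39e-05). The PB+RA level was lower than with RA (-1.01 ± 0.36, adjusted p = 0.0262), a call lost without RA replicate 3 or 4 or PB+RA replicate 1 or 2 (-1.0 to -0.83). Against PB, PB+RA gave 0.97 ± 0.37 (adjusted p = 0.0521), and 0.95 with the block (adjusted p = 3.82e-06).

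TIMP2 (chr17:76849059-76921469, minus strand), which inhibits MMPs and also serves in pro-MMP2 activation, followed RA. It read 270, 197, 361 and 377 CPM in DMSO, 482, 329, 591 and 581 with RA, 296, 214, 395 and 384 with PB, and 503, 354, 635 and 651 with PB+RA. The groups overlapped because replicates 3 and 4 were above replicates 1 and 2 in all of them, whereas the ratio of RA to DMSO was between 0.62 and 0.84 on the log2 scale in the 4 replicate numbers. RA raised TIMP2 by 0.71 ± 0.26 (adjusted p = 0.0455), both agents raised it by 0.80 ± 0.26 (adjusted p = 0.0136), and PB gave 0.10 ± 0.26 (adjusted p = 0.761). The RA call was lost without DMSO replicate 1 or 2 or RA replicate 1, 3 or 4 (0.56 to 0.72, adjusted p 0.0704 to 0.123) and with the GC and length correction (0.55, adjusted p = 0.103), which also ended the PB+RA call (0.58, adjusted p = 0.0634). Its rise over PB (0.70 ± 0.26, adjusted p = 0.0457) was lost without PB replicate 1 or 2 or PB+RA replicate 1, 3 or 4 (0.55 to 0.73). With the replicate number as a block these TIMP2 calls were kept. They were 0.72 with RA (adjusted p = 5.64e-12), 0.81 with PB+RA (adjusted p = 9.65e-14) and 0.70 over PB (adjusted p = 8.19e-12).

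TIMP3, the inhibitor that binds the matrix, read 6.95, 8.36, 3.38 and 4.95 CPM in DMSO, 11.4, 14.3, 8.40 and 12.7 with RA, 16.4, 24.1, 7.13 and 9.23 with PB, and 17.5, 26.2, 11.6 and 14.0 with PB+RA. The RA and PB+RA samples lay above all DMSO samples, while PB and DMSO overlapped. PB raised TIMP3 by 1.27 ± 0.38 (adjusted p = 0.0100), and both agents raised it by 1.53 ± 0.38 (adjusted p = 0.00215). The RA value was 0.98 ± 0.38 (adjusted p = 0.0551) and 1.02 with the block (adjusted p = 5.1e-05), which also called PB+RA over RA (0.51, adjusted p = 0.00480, against 0.55 ± 0.36 and 0.214 without it). TIMP1 read 91.6 to 105 CPM in DMSO, 100 to 132 with RA, 76.0 to 97.4 with PB and 109 to 123 with PB+RA. Of the comparisons of TIMP1, that of PB+RA with PB gave the highest value, 0.42 ± 0.084 (adjusted p = 0.000950), under the fold minimum.

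**Figure D3:**
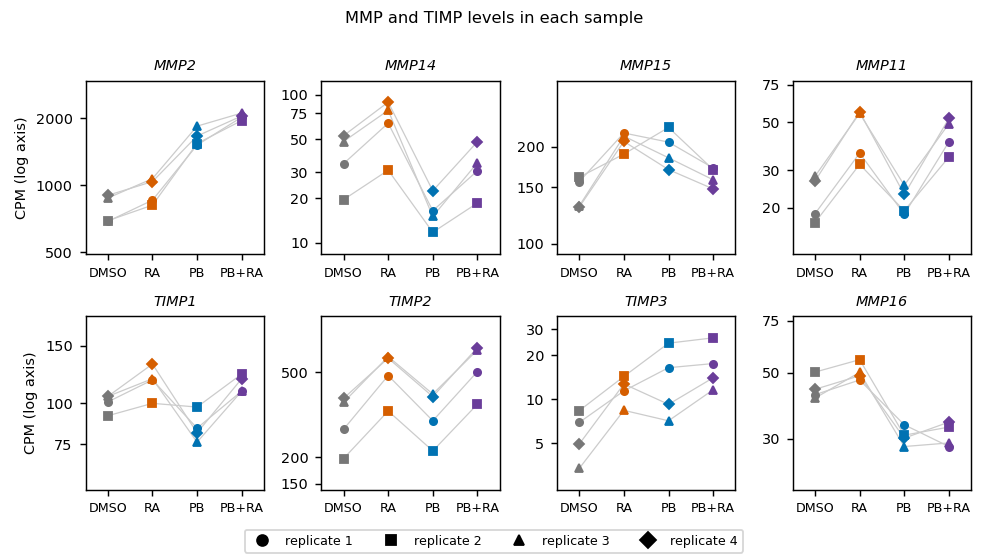
Level of 5 MMPs and 3 TIMPs (y axis, CPM on a log axis) in each sample, with lines joining samples of the same replicate number and symbols marking the number. MMP2 climbs from 689 to 902 CPM in DMSO to 1955 to 2113 CPM with PB+RA, and replicate 2 is the lowest of its group for TIMP2 and MMP14 in all 4 groups.

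Within samples, the ratio of MMP2 to TIMP2 reads was 2.73 ± 0.540 in DMSO, 1.96 ± 0.339 with RA, 5.33 ± 1.28 with PB and 4.01 ± 1.08 with PB+RA (SD, n = 4, not corrected for length). The ratio of MMP14 to TIMP2 reads was 0.125 ± 0.0178 in DMSO, 0.129 ± 0.0249 with RA, 0.0518 ± 0.00926 with PB and 0.0607 ± 0.00970 with PB+RA. All 8 samples with PB had a lower MMP14 to TIMP2 ratio than all 8 without it. These ratios are descriptions and were not tested.

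MMP11, MMP15 and MMP17 were the MMPs called higher with RA without the replicate block, which also called MMP14 and MMP1. MMP11, a secreted furin-activated MMP also called stromelysin-3, read 18.8, 17.1, 28.1 and 26.7 CPM in DMSO, 36.0, 31.9, 55.1 and 56.0 with RA, 18.7, 19.4, 25.5 and 23.1 with PB, and 40.6, 34.5, 49.3 and 52.2 with PB+RA. RA and PB+RA samples lay above all DMSO and PB samples. RA raised MMP11 by 0.97 ± 0.21 (adjusted p = 0.00222), both agents raised it by 0.93 ± 0.21 (adjusted p = 0.00102), and PB gave -0.06 ± 0.21 (adjusted p = 0.815). MMP17, a membrane MMP held by a lipid anchor, read 2.91, 2.20, 3.54 and 3.95 CPM in DMSO, 5.77, 6.63, 7.23 and 5.68 with RA, 3.78, 3.39, 4.52 and 3.67 with PB, and 9.90, 8.46, 6.83 and 7.33 with PB+RA. RA raised MMP17 by 1.0 ± 0.17 (adjusted p = 0.000307), and both agents raised it by 1.34 ± 0.17 (adjusted p = 2.78e-06). Of the 12 mesenchymal markers, 9, FN1 among them, also had a higher mean with RA than in DMSO, and 3 had a lower one. COL3A1 averaged 7.77 CPM in DMSO and 33.9 with RA, and COL1A1 23.4 and 58.8, while LUM averaged 44.8 and 22.1. The sum of the 11 markers other than FN1 overlapped between these groups, as given above. The part of these markers in the changes of MMP11, MMP17, TIMP2 and the other members raised by RA was not tested.

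MMP15 (chr16:58059658-58080805, plus strand) read 156, 161, 131 and 130 CPM in DMSO, 221, 190, 216 and 208 with RA, 207, 230, 185 and 170 with PB, and 172, 170, 158 and 148 with PB+RA. Each single agent placed all its samples above all DMSO samples, and the PB+RA samples overlapped DMSO. MMP15 rose with RA by 0.52 ± 0.094 (adjusted p = 0.000539), and PB gave 0.45 ± 0.094 (adjusted p = 0.000715), under the fold minimum. PB+RA gave 0.14 ± 0.094 (adjusted p = 0.210). The RA value lies close to the fold minimum and lost its call without DMSO replicate 3 or 4 or RA replicate 1 (0.46 to 0.48), in DESeq2 (0.49, adjusted p = 1.03e-05) and with the GC and length correction (0.38, adjusted p = 0.00151). Its promoter (RefSeq, GRCh38.p14, chr16:58025504-58025803, plus strand) is shown because it holds the nuclear receptor half-site AGGTCA, the letters that RA receptors recognise in pairs. It is 1 of 2 with that half-site among the 27 members' promoters searched. Capitals mark this half-site and the GC boxes.
MMP15: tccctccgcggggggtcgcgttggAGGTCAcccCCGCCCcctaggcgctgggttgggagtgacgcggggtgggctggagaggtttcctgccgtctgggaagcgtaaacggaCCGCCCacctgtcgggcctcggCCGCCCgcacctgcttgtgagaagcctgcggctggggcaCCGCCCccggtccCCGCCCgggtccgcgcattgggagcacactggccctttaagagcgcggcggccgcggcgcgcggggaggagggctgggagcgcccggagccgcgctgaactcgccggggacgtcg
The half-site was also found in the promoter of ADAMTSL5, which RA did not raise, and in 13.8% of all 35116 promoters of the table, counting both strands.

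MMP16, a membrane MMP, fell with PB. It read 42.2, 50.3, 41.1 and 44 CPM in DMSO, 47.3, 55.4, 50.2 and 48.9 with RA, 33.4, 30.8, 28.2 and 30.1 with PB, and 28.2, 32.8, 29.0 and 34.1 with PB+RA. No sample with PB reached a level seen without it. The log2 fold change of MMP16 was -0.53 ± 0.078 under PB (adjusted p = 2.54e-05) and -0.55 ± 0.078 under both agents (adjusted p = 1.1e-05), and without DMSO replicate 2 these were -0.47 (adjusted p = 9.94e-05) and -0.48 (adjusted p = 4.3e-05), under the fold minimum. MMP24, a membrane MMP of neurons, read 73.6 to 76.4 CPM in DMSO and 81.0 to 102 with PB+RA and was not called. Its opposite-strand neighbour MMP24OS shares 806 of its exon bases (18.4%) and averaged 31.5 CPM beside 80.3 CPM for MMP24.

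Of the remaining MMPs, interstitial collagenase MMP1 ranged from 0 to 0.232 CPM in DMSO and from 0.283 to 1.84 with PB+RA, a rise of 3.51 ± 0.88 (adjusted p = 0.00241). DMSO replicates 2 and 3 held 0 reads, which allows up to 0.122 and 0.0949 CPM. The RA and PB values of MMP1 were 2.03 ± 1.0 (adjusted p = 0.132) and 2.00 ± 1.0 (adjusted p = 0.115), and with the block they were 2.04 (adjusted p = 0.00895) and 2.03 (adjusted p = 0.00779). The block also called PB+RA over PB (1.50, adjusted p = 0.00371) and over RA (1.49, adjusted p = 0.00214), where the test without it gave adjusted p = 0.115 and 0.0915. MMP23A, an unprocessed pseudogene in the annotation with a near-identical copy in MMP23B, was higher with PB+RA than with RA (2.04 ± 0.62, adjusted p = 0.0108) at levels of 0 to 0.188 CPM with RA and 0.205 to 0.557 with PB+RA. Against DMSO it gave 1.11 ± 0.54 (adjusted p = 0.0797), and 1.12 with the block (adjusted p = 0.0470). MMP25 stayed between 0.102 and 1.35 CPM, and its PB+RA values of -1.46 against DMSO (adjusted p = 0.0753), -1.60 against PB (0.0839) and -1.38 against RA (0.110) passed with the block at -1.40 (0.0117), -1.56 (0.0101) and -1.30 (0.0238). MMP25-AS1, at 2.12 CPM, shares 1454 exon bases (30.6%) with MMP25 on the opposite strand, so its counts are uncertain.

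Of the ADAMs with an intact active site, ADAM10 and ADAM17 are the main sheddases of neural cells. ADAM10 read 127, 136, 137 and 142 CPM in DMSO, 166, 146, 163 and 169 with RA, 152, 147, 141 and 142 with PB, and 168, 177, 188 and 201 with PB+RA. ADAM17 read 57.6, 62.2, 62.1 and 59.6 CPM in DMSO, 65.4, 65.3, 71.1 and 71.1 with RA, 46.6, 48.1, 47.7 and 47.2 with PB, and 50.7, 51.3, 56.3 and 56.6 with PB+RA. Neither was called, since all their changes lay under the fold minimum. The PB+RA value of ADAM10 was 0.41 ± 0.058 (adjusted p = 1.04e-05), and the PB value of ADAM17 was -0.35 ± 0.052 (adjusted p = 2.9e-05). The ratio of ADAM10 to ADAM17 reads was 2.25 ± 0.0955 in DMSO, 2.36 ± 0.136 with RA, 3.07 ± 0.126 with PB and 3.42 ± 0.111 with PB+RA (SD, n = 4). The PB and PB+RA ratios overlapped neither each other nor the other groups, while RA and DMSO overlapped. The ratio was not tested. IAH1, at 20.9 CPM on the opposite strand, shares 1645 exon bases (10.3%) with ADAM17, so the counts of ADAM17 are uncertain.

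**Figure D4:**
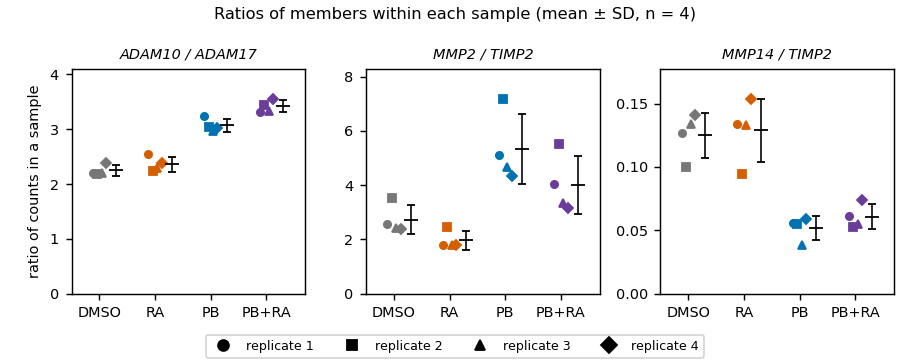
Ratio of reads of 2 members within each sample (y axes from 0, no unit) in the 4 groups, with the mean ± SD (n = 4) beside the points and symbols marking the replicate number. The ADAM10 to ADAM17 ratio is 3.07 with PB and 3.42 with PB+RA beside 2.25 in DMSO, and the MMP14 to TIMP2 ratio is lower in all samples with PB.

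ADAM19, a sheddase of neuregulin, was the ADAM raised by each agent. It read 1.63, 1.83, 2.75 and 3.68 CPM in DMSO, 3.60, 4.21, 6.56 and 8.06 with RA, 4.63, 5.76, 4.47 and 5.66 with PB, and 9.70, 11.9, 13.8 and 15.4 with PB+RA. All PB+RA samples lay above all others, and RA overlapped DMSO at its lower end. PB raised ADAM19 by 1.05 ± 0.27 (adjusted p = 0.00376), RA by 1.17 ± 0.27 (adjusted p = 0.00330) and both agents by 2.33 ± 0.27 (adjusted p = 1.08e-06). CYFIP2, at 14.2 CPM on the opposite strand, shares 62 exon bases (0.805%) with it. ADAM12, a protease of myoblasts and of tumour stroma, read 91.6, 105, 99.9 and 110 CPM in DMSO, 73.0, 74.9, 95.5 and 89.8 with RA, 144, 143, 155 and 147 with PB, and 72.8, 79.8, 117 and 113 with PB+RA. The PB samples lay above all others. ADAM12 rose with PB (0.54 ± 0.13, adjusted p = 0.00245) and was lower with PB+RA than with PB (-0.65 ± 0.13, adjusted p = 0.00106). The PB call was lost without DMSO replicate 1 or PB replicate 3 (0.48 to 0.49) and with the GC and length correction (0.38, adjusted p = 0.0124).

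ADAM9 and ADAM15, widely expressed sheddases, were lower with PB. ADAM9 read 105, 118, 133 and 130 CPM in DMSO, 107, 117, 140 and 136 with RA, 73.9, 82.1, 84.6 and 85.9 with PB, and 68.9, 90.6, 92.6 and 103 with PB+RA. ADAM15 read 86.2, 97.3, 106 and 92.6 CPM in DMSO, 76.1, 93.1, 89.0 and 83.7 with RA, 53.3, 63.5, 74.7 and 68.8 with PB, and 46.5, 52.8, 56.2 and 48.8 with PB+RA. For both genes the samples with PB lay below all samples without it. ADAM9 fell by 0.57 on the log2 scale with PB (SE 0.11, adjusted p = 0.000424), and PB+RA gave -0.48 ± 0.11 (adjusted p = 0.00118), under the fold minimum. Its PB+RA level against RA (-0.51 ± 0.11, adjusted p = 0.000985) left the call without RA replicate 3 or 4 or PB+RA replicate 1 (-0.47 to -0.43). ADAM15 fell by 0.55 with PB (SE 0.099, adjusted p = 0.000184) and by 0.93 with PB+RA (SE 0.10, adjusted p = 4.18e-07), and the PB call was lost without DMSO replicate 3 or PB replicate 1 (-0.49 to -0.46).

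Low-level ADAMs of this class were called higher with PB+RA. ADAM8, a leukocyte and tumour ADAM, ranged from 0.316 to 0.852 CPM in DMSO, 0.528 to 1.27 with RA, 0.679 to 2.19 with PB and 2.00 to 3.30 with PB+RA. Both agents raised ADAM8 by 2.06 ± 0.37 (adjusted p = 0.000126) and PB by 1.18 ± 0.39 (adjusted p = 0.0172), the latter lost without DMSO replicate 2 or 3 or PB replicate 1 (0.83 to 1.03). Its PB+RA level over PB was 0.88 ± 0.35 (adjusted p = 0.0572), and 0.91 with the block (adjusted p = 0.00241). ADAM28, of lymphoid and epithelial cells, ranged from 0.163 to 0.316 CPM in DMSO, 0.0809 to 0.205 with RA, 0.629 to 1.33 with PB and 0.221 to 1.23 with PB+RA. PB raised ADAM28 by 1.94 ± 0.43 (adjusted p = 0.00118), and both agents raised it by 1.75 ± 0.43 (adjusted p = 0.00199). ADAM21, a testis gene with a near copy in ADAM20, ranged from 0.106 to 0.194 CPM in DMSO and 0.443 to 0.914 with PB+RA and rose by 2.05 ± 0.51 (adjusted p = 0.00214). Over PB it rose by 1.35 ± 0.49 (adjusted p = 0.0405), a call lost without PB replicate 1, 2 or 4 or PB+RA replicate 1, 3 or 4 (0.94 to 1.42) and in DESeq2 (1.36, adjusted p = 0.0535).

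Of the 4 tested ADAMs without a working protease, PB raised 1, and PB+RA raised 2 and lowered 1. ADAM23 read 24.7, 21.7, 25.2 and 27.7 CPM in DMSO, 27.8, 30.1, 33.7 and 36.6 with RA, 32.9, 29.2, 30.2 and 34.0 with PB, and 41.8, 42.2, 39.0 and 46.0 with PB+RA. Every DMSO sample lay below every treated one. ADAM23 rose with PB+RA (0.74 ± 0.087, adjusted p = 1.26e-06), and each single agent gave a value under the fold minimum (0.35 ± 0.087 with PB, 0.36 ± 0.087 with RA). ADAM11 read 7.30, 5.91, 6.58 and 7.01 CPM in DMSO, 4.96, 6.55, 6.67 and 5.54 with RA, 7.34, 6.14, 6.89 and 5.88 with PB, and 5.80, 5.09, 4.24 and 4.10 with PB+RA. Its PB+RA samples lay below all DMSO samples, a fall of 0.50 on the log2 scale (SE 0.13, adjusted p = 0.00337) that sat at the fold minimum and was lost when replicate 1 or 4 of DMSO, or 3 or 4 of PB+RA, was left out (-0.48 to -0.43). ADAM22 read 91.7 to 109 CPM in DMSO, 117 to 144 with PB and 109 to 160 with PB+RA, and its values of 0.45 ± 0.11 with PB and with PB+RA lay under the fold minimum. ADAM32, a gene known from testis, ranged from 1.74 to 2.40 CPM in DMSO, 1.47 to 2.35 with RA, 3.17 to 4.56 with PB and 3.60 to 3.89 with PB+RA. PB raised ADAM32 by 0.97 ± 0.16 (adjusted p = 7.92e-05), and both agents raised it by 0.93 ± 0.16 (adjusted p = 7.81e-05).

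ADAMTS-like genes encode matrix proteins that share the ancillary domains of ADAMTSs but have no protease, and the 3 tested had negative medians of -0.46 with PB, -0.43 with RA and -1.06 with PB+RA. ADAMTSL2, a binding partner of fibrillin, ranged from 3.14 to 4.06 CPM in DMSO, 2.39 to 3.02 with RA, 2.06 to 3.98 with PB and 1.58 to 2.21 with PB+RA. ADAMTSL2 fell with PB+RA against DMSO (-1.06 ± 0.20, adjusted p = 0.000154), against RA (-0.64 ± 0.20, adjusted p = 0.0129) and against PB (-0.60 ± 0.20, adjusted p = 0.0273), the last of which was lost without PB replicate 4 or PB+RA replicate 1, 3 or 4 (-0.60 to -0.34). ADAMTSL5 ranged from 0.379 to 0.922 CPM in DMSO, 0.151 to 0.445 with RA, 0.0905 to 0.343 with PB and 0.102 to 0.177 with PB+RA. Its log2 fold change was -1.53 ± 0.43 under PB (adjusted p = 0.00653) and -2.12 ± 0.46 under both agents (adjusted p = 0.000651). Under RA the value was -1.0 ± 0.39 (adjusted p = 0.0597), and -1.0 with the block (adjusted p = 0.0127), which also called PB+RA against RA (-1.13, adjusted p = 0.0326, beside -1.12 and 0.0752 without it). ADAMTSL4, which MCL1 overlaps on the opposite strand at 288 CPM with 43 shared exon bases, was higher with PB+RA than with PB with the block alone (0.56, adjusted p = 0.0425, beside 0.56 and 0.0538).

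The interaction term asked whether PB+RA differed from the sum of the single changes on the log2 scale. Of the tested members, 1 lay above additive, where 0.415% of all tested genes did, and 2 lay below, where 3.02% of all did. ADAMTS2 lay above by 1.36 ± 0.26 (adjusted p = 0.00737), with a sum of single changes of -0.19 against an observed 1.17, and in replicates 3 and 4 alone the term was 1.66 (adjusted p = 0.0802). MMP15 lay below by 0.83 (interaction -0.83 ± 0.13, adjusted p = 0.00182), with a sum of 0.97 against an observed 0.14. ADAMTS4 lay below (-1.68 ± 0.44, adjusted p = 0.0369) and lost its call when any 1 of 10 samples was left out, namely DMSO replicate 1, 3 or 4, PB replicate 1 or 2, RA replicate 2 or 3, or PB+RA replicate 1, 3 or 4 (-1.74 to -1.42, adjusted p 0.0536 to 0.0818). With the replicate block the ADAMTS4 term was -1.69 (adjusted p = 1.34e-05). TIMP3 gave -0.72 ± 0.52 (adjusted p = 0.532), and -0.71 with the replicate block (adjusted p = 0.0283).

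**Figure D5:**
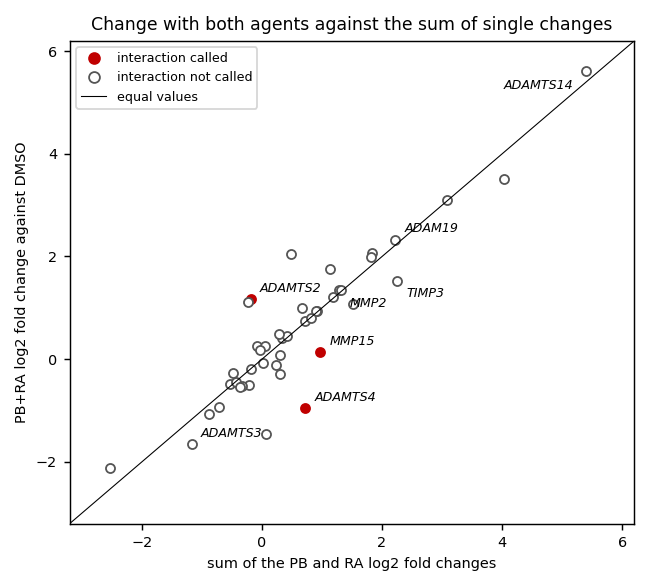
Log2 fold change of PB+RA against DMSO (y axis) over the sum of the PB and RA log2 fold changes (x axis) for the 44 tested members, with a line of equal values. ADAMTS2 lies above the line, MMP15 and ADAMTS4 lie below it, and ADAMTS14, furthest out at 5.61, lies close to it.

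Genes that supply, activate, hold back or receive these proteases were taken from lists, which were chosen with earlier results of these data known. Beside the counts that follow, 16.9% of all tested genes were called higher and 11.3% lower under PB. Under RA these background shares were 10.8% and 2.54%, and under both agents 24.0% and 17.9%. Of 21 tested genes of activation, trafficking and inhibition, PB raised 6 and lowered 2, RA raised 7, and PB+RA raised 8 and lowered 2, with medians of 0.13, 0.16 and 0.22. These are shares of 28.6% and 9.52% with PB, 33.3% higher with RA, and 38.1% and 9.52% with PB+RA. The replicate block added TFPI2 to those raised by PB (1.89, adjusted p = 0.0242, beside 1.83 and 0.101 without it) and TSPAN15 to those lowered by RA (-0.52, adjusted p = 8.99e-07, beside -0.53 and 0.116). With PB+RA it added TSPAN5 (0.77, adjusted p = 0.000336, beside 0.72 and 0.286) and PCSK6 (-1.09, adjusted p = 0.000407, beside -1.14 and 0.0675). In the other lists the block changed no count against DMSO. LRP1, an endocytic receptor that clears MMP2 and TIMPs, read 24.2 ± 2.64 CPM in DMSO, 48.8 ± 8.10 with RA, 46.8 ± 4.31 with PB and 81.2 ± 19.9 with PB+RA (SD, n = 4), and rose in all 3 comparisons with DMSO (1.72 ± 0.15 with PB+RA, adjusted p = 5.81e-08). The testican SPOCK2 rose from 3.91 ± 0.576 to 32.6 ± 9.85 CPM with PB+RA (3.02 ± 0.28, adjusted p = 1.12e-07). TSPAN14, a tetraspanin partner of ADAM10, rose with RA (0.59 ± 0.085, adjusted p = 6.87e-05) and fell with PB (-0.69 ± 0.087, adjusted p = 5.03e-06). RECK, a membrane inhibitor of MMPs, read 8.33 ± 0.572 CPM in DMSO and 12.7 ± 2.08 with PB+RA and rose (0.57 ± 0.11, adjusted p = 0.000189). PCOLCE, which enhances procollagen C-proteinase, fell with PB+RA from 390 ± 61.4 to 235 ± 57.9 CPM (-0.76 ± 0.17, adjusted p = 0.00127). FURIN, which removes the prodomains of many members, read 101 ± 3.45 CPM in DMSO and 120 ± 15.4 with PB+RA and was not called.

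Of the lists that follow, 4 hold 2 to 6 tested genes, too few for their shares to be read against the background. Of 6 tested genes of plasminogen activation, RA raised 4 (PLAT, PLAU, PLAUR and SERPINE2), PB lowered 3 and raised 1, and PB+RA raised 3. PLAT, the tissue activator, read 249 ± 24.3 CPM in DMSO, 678 ± 39.9 with RA, 312 ± 30.4 with PB and 795 ± 91.4 with PB+RA. Among 24 tested cell-surface proteins that ADAMs are known to shed, PB raised 11 and lowered 3, RA raised 11, and PB+RA raised 10 and lowered 3, with medians of 0.50, 0.43 and 0.36. In shares, 45.8% were higher and 12.5% lower with PB, 45.8% were higher with RA, and 41.7% were higher and 12.5% lower with PB+RA, against the background shares above. NGFR, the low-affinity neurotrophin receptor, rose from 100 ± 31.4 to 607 ± 215 CPM with PB+RA (2.57 ± 0.35, adjusted p = 1.14e-05), and the growth factor HBEGF from 10.0 ± 0.690 to 49.2 ± 8.98 CPM (2.27 ± 0.16, adjusted p = 2.31e-09). Of 5 tested genes for lecticans, which the proteoglycanases cut, and for their link proteins, PB raised 2 and lowered 2. Of the same 5, RA raised 3, and PB+RA raised 2 and lowered 2. VCAN, which encodes versican, rose with RA from 41.9 ± 9.81 to 79.0 ± 26.7 CPM (0.91 ± 0.29, adjusted p = 0.0248). Both tested LGI ligands, LGI1 and LGI2, rose with PB and with PB+RA from DMSO means of 0.749 and 0.292 CPM. Of 5 other tested extracellular metalloproteases, PB raised 2, RA raised 2 and PB+RA raised 3. Most abundant of these was ECE1, the endothelin-converting enzyme, at 204 ± 12.2 CPM in DMSO, which was not called.

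The promoters of 27 tested members were in the RefSeq table. GC boxes (GGGCGG on either strand) were found in 24 of these, and in 45.0% of all 35116 promoters of the same length. The median share of G and C was 72.7% in the members' promoters and 58.7% in all. A TATA box (TATAAA) was found in those of ADAM21 and ADAMTSL2, and in 11.5% of all. The AP-1 site TGACTCA, known from MMP1 and other MMP promoters, was found in 0 of the 27 and in 4.95% of all. Of the MMPs, those 27 hold MMP11, MMP14, MMP15 and MMP24 alone, so the promoter of MMP1 was not searched. These shares describe the windows and were not tested.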

How the data were processed

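RNA-seq covered 4 groups of the line SK-N-BE(2)C, and each sample's title gave its group and number. Per the methods, polyadenylated RNA was made into strand-specific libraries and sequenced as paired ends, and reads were aligned to hg19. The submitters' processing notes name Trim Galore 0.6.4, STAR 2.6.1d and DESeq2 1.32.0. The deposited counts are the authors' reads per gene with no normalization. The authors also deposited CPM, which equalled the count over the sample's total (scaled to 1e6) within 1e-11. The annotation release and the strand setting of the counting are not given in the sources used here, so counts of genes overlapping on opposite strands are uncertain. A further table, with log2 fold changes and adjusted p-values from the authors' DESeq2 comparisons, was not used.

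Members and lists were chosen with earlier results of these data known. Counts of 15415 genes that passed filterByExpr were fitted in edgeR 4.0.16 (R 4.3.3) with TMM scaling, 1 coefficient per group over all 16 samples, and quasi-likelihood F tests with robust dispersions. Adjusted p-values are Benjamini-Hochberg values over all genes tested, and a call also needed an absolute log2 fold change above 0.5. The SE is the absolute log2 fold change over the square root of F. CPM in the text are counts over the sample total, and RPKM divides them by the exon length of the GENCODE v44lift37 annotation on GRCh37, which also gave the gene coordinates. The steps were tested on simulated data.

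Samples with the same replicate number deviated together from their group means in each of 24 pairs (correlation 0.330 to 0.573), beside -0.492 to 0.447 for 72 pairs with other numbers, so the numbers were taken to pair the samples. Of the pairs with other numbers, those within replicates 1 and 2 or within 3 and 4 were positive. Those between these sets were negative, so the deviations followed the sets as well as the numbers. The counts of calls and the shares of all genes still come from the fit without that pairing. The fit with the replicate number as a block is given where it changed the call, and beside some calls lost in other fits. Alternatives were RLE size factors, no filter or a filter of 1 CPM in 4 samples, only the groups compared, a GC and length correction (splines with 5 degrees of freedom), replicates 1 and 2 or 3 and 4 alone, each sample left out, other fold minimums, and DESeq2 1.42.0.

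CPM of every sample were given for called members with a mean of at least 5 CPM, ranges for other called members, and uncalled members were named at a mean of at least 10 CPM or as textbook members. A 0 allows up to 3 reads in a sample, which covers counting error only. Figures were drawn with matplotlib.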

Additional observations from a re-analysis of the deposited data

Results flagged for a closer look

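The effect of RA with PB present differed from its effect without PB, by the interaction test in edgeR, for 3 of the 44 tested members. Of these, 1 lay above additive and 2 below, where 0.415% and 3.02% of all tested genes did. ADAMTS2, a procollagen N-propeptidase, lay above the sum of the single changes by 1.36 on the log2 scale. MMP15, a membrane matrix metalloprotease, lay below it at -0.83. ADAMTS4, a proteoglycanase of low level, lay below it at -1.68. The ADAMTS4 call was lost when any 1 of 10 samples was left out and in replicates 1 and 2 alone (-1.64, adjusted p = 0.179). With the replicate number as a block the ADAMTS4 term was -1.69 (adjusted p = 1.34e-05). The CPM values of 20 called members with a mean of at least 5 CPM were also searched for a sample far from the other 3 of its group, and 0 of 80 groups of 4 held one by Dixon's test at the 95% level, which flags about 1 in 20 groups by chance.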

How the results depend on the processing

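Over the 93 calls of members (90 in the 5 comparisons and 3 of the interaction), 57 of the 90 kept their direction and their call in every alternative fit at the fold minimum of 0.5, and 38 of these also passed a log2 minimum of 1, which ended 42 of the 93 calls. RLE size factors ended 4 of the 93 calls, DESeq2 2, the GC and length correction 11, and the replicate block none of them, while the block (paired by replicate number) added 22 calls, each given beside its gene in the report. With the block the members called higher with RA went from 9 to 14 and those called lower from 1 to 2, and no other count of members moved by over 1.5 times. The GC and length correction gave 5 higher and 3 lower with RA, and 3 lower together with the block. With no filter on low counts, 5 members were called higher with RA and 7 for PB+RA against PB, and in replicates 1 and 2 alone 7 were called higher for PB+RA against PB. In replicates 3 and 4 alone, 0 members lay above additive, ADAMTS2 among those lost (1.66, adjusted p = 0.0802).

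A fold minimum of 1 on the log2 scale left 7 higher and 2 lower with PB, 2 higher with RA, 3 lower with PB+RA, 7 higher and 2 lower for PB+RA against PB, 3 lower for PB+RA against RA, and 1 below additive. With no fold minimum, 2 members were lower with RA, and 17 were higher and 10 lower for PB+RA against PB. When each sample was left out in turn, the members lower with RA numbered 1 to 2 (2 without DMSO replicate 3 or RA replicate 2) and those below additive 1 to 2, ADAMTS4 being lost. The sign of ADAMTS9 with PB+RA against DMSO, -0.08 in the fit of all samples, turned to 0.18 in replicates 3 and 4 alone (adjusted p = 0.0131), and it ranged from -0.38 (without PB+RA replicate 4) to 0.12 (without PB+RA replicate 1) when 1 sample was left out, being also 0.03 without DMSO replicate 4 and 0.08 without PB+RA replicate 2. The cause of these differences was not tested. Calls of members below 1 CPM rest on few reads.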
